A study of Mus musculus with 4 samples.

Results

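The collagen genes were taken as the rows of the count table whose symbol is Col, a number, the letter a and another number, as in Col1a1. By this rule, which uses symbols and no measured value, 44 of the 44788 gene rows were members. They were sorted by the known structure of the protein into 11 fibrillar, 9 basement membrane, 9 network, 9 fibril-associated and 6 membrane-spanning or other collagens. The RNA came from colon tissue of C57BL/6 mice, with 1 library for each of 4 groups. These were untreated wild-type (WT) mice at day 0, untreated mice labelled Card9-/- at day 0, WT mice given AOM/DSS and collected on day 100, and mice labelled Card9-/- given AOM/DSS and collected on day 100. In the AOM/DSS model of colitis-associated colon tumours the mutagen azoxymethane (AOM, 10 mg/kg, on day 1) is followed by dextran sulfate sodium (DSS, 2%, 36 to 50 kDa), which injures the gut lining. DSS was given in the drinking water in 3 cycles of 7 days, and the first cycle began 5 days after AOM. Treatment and day of collection cannot be told apart in this layout. Age and sex of the mice, how many mice stand behind a library and the structure of the Card9 allele were not given in the sources used here.

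Collagens are proteins of 3 chains wound into a triple helix. Fibrillar collagens such as types I and III bear the tensile load of the colon wall, and fibril-associated collagens sit on the surface of those fibrils. Type IV collagen forms the sheet of the basement membrane under epithelium and around vessels and muscle cells, type VI forms beaded filaments near cells, and type VIII forms lattices in vessel walls. In the gut most fibrillar chains come from fibroblasts and smooth muscle, and each chain passes through modification, folding, trimming and cross-linking before it is part of a fibre.

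The libraries held 23022885 to 27706567 counts. The library that stood apart was AOM/DSS, labelled knockout, with a correlation of 0.798 to 0.829 with the other libraries across 15173 genes on the log2 scale, against 0.933 to 0.947 among the other 3. Card9, the myeloid signalling adaptor named in the label, was counted in all 4 libraries, at 1.75 and 5.32 CPM in WT (untreated, then AOM/DSS) and at 3.18 and 7.73 CPM under the knockout label (44, 116, 69 and 245 counts). CPM, the unit used throughout, is the count scaled to library size with TMM factors. Counts of the target gene were thus higher, not lower, under the knockout label at each treatment. Since the structure of the allele was not given, counts per gene cannot show whether the label holds. These samples are therefore called libraries labelled knockout, and every direction between labels rests on the label alone. With 1 library per group no difference between libraries has a replicate check, and the 95% intervals given after folds cover counting error only. Whole tissue was sequenced, so fewer cells of a type and less RNA per cell cannot be told apart.

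All 44 collagens had a count in untreated WT colon, 41 in the untreated library labelled knockout and 42 in each AOM/DSS library, and 35 had at least 50 counts in a library. Divided by transcript length, so that genes can be compared, Col3a1 was the highest collagen in every library. Col3a1, the chain of type III collagen (chr1:45311538-45349706), stood at 163 CPM per kb in untreated WT, 147 in the untreated library labelled knockout, 90.9 in WT AOM/DSS and 101 in the AOM/DSS library labelled knockout. In untreated WT it was followed by the type VI chains Col6a1 (87.4 CPM per kb) and Col6a2 (70.0), the type I chain Col1a2 (66.6) and the basement membrane chain Col4a1 (64.9). In the AOM/DSS library labelled knockout the order behind Col3a1 was Col4a1 (81.3 CPM per kb), Col4a2 (45.9), Col1a2 (35.3), Col18a1 (30.0) and Col6a1 (27.6). Type VI chains thus stood right behind Col3a1 in untreated WT tissue. In the untreated library labelled knockout Col1a2 (73.8 CPM per kb) came before Col6a1 (60.9). Basement membrane chains stood right behind Col3a1 in both AOM/DSS libraries. In WT AOM/DSS these were Col4a1 (58.5 CPM per kb) and Col4a2 (40.9), the latter barely above Col6a1 (40.3).

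**Figure D1:**
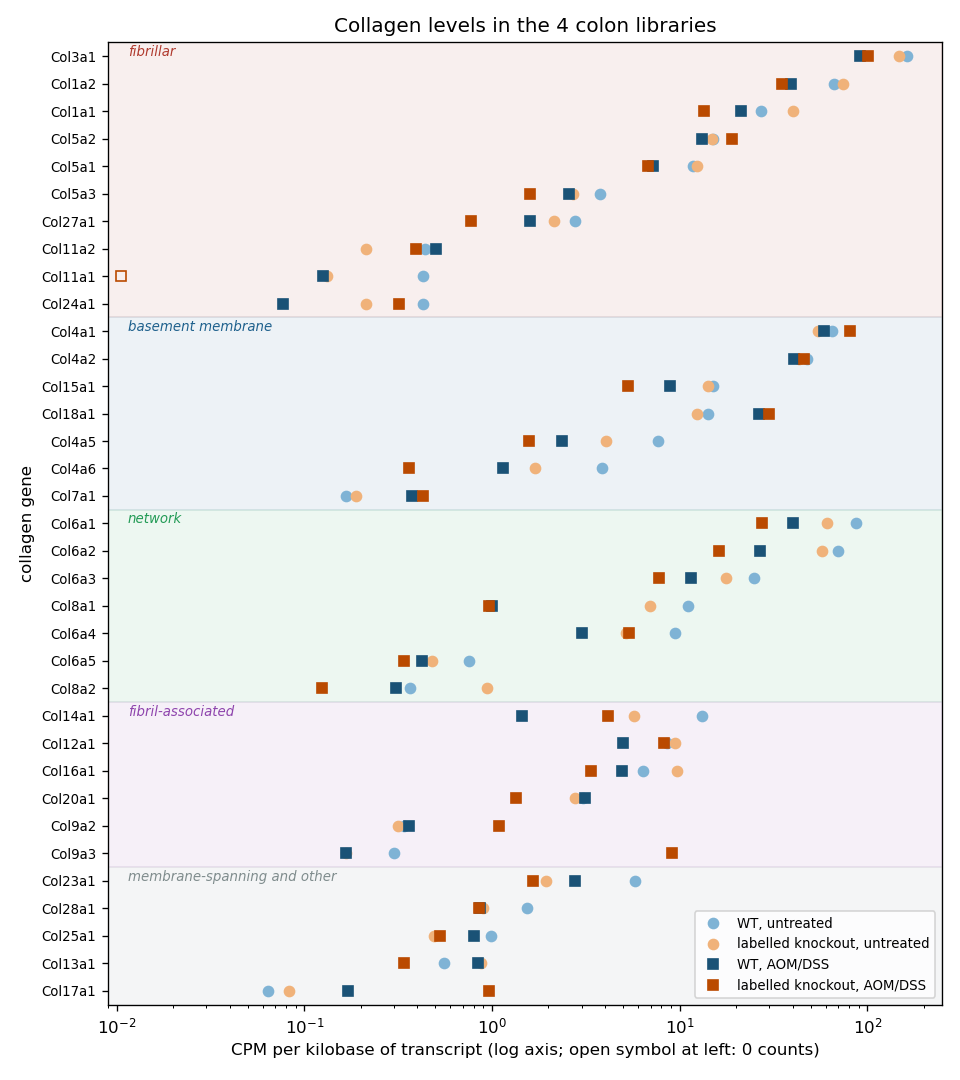
Level of each collagen with at least 50 counts in a library, as CPM per kb of transcript on a log axis, in the 4 libraries, grouped by class. Circles are untreated and squares AOM/DSS libraries, 1 library per group and no error bar, and the open symbol marks Col11a1 at 0 counts. The 6 chains Col6a1, Col6a2, Col6a3, Col8a1, Col4a5 and Col4a6 are among those with both squares left of both circles, as is Col3a1. Col18a1 is among those with both squares on the right, as are the scarcer Col7a1 and Col17a1.

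Summed over all 44 genes, collagens stood at 3950.1 CPM in untreated WT, 3477 in the untreated library labelled knockout, 2446 in WT AOM/DSS and 2582 in the AOM/DSS library labelled knockout. Both AOM/DSS libraries lay below both untreated libraries. As a share of library counts, without TMM factors, collagens made up 0.392%, 0.324%, 0.232% and 0.295% in the same order. The libraries labelled knockout thus lay closer together by that measure. The classes did not share the lower totals evenly. Fibrillar collagens summed to 1675 and 1686 CPM in the untreated libraries (WT first) and to 1021 and 1032 CPM in the AOM/DSS libraries. Network collagens summed to 1021 and 738 CPM without treatment and to 420.3 and 304 CPM after AOM/DSS. Basement membrane collagens summed to 975 and 821 CPM without treatment and to 871 and 1047 CPM after AOM/DSS, so here the groups overlapped. As a share of collagen counts, basement membrane chains made up 24.7% and 23.6% without treatment and 35.6% and 40.5% after AOM/DSS, and network chains made up 25.9% and 21.2% against 17.2% and 11.8%. Fibril-associated chains stayed between 4.46% and 6.94% in the 4 libraries.

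**Figure D2:**
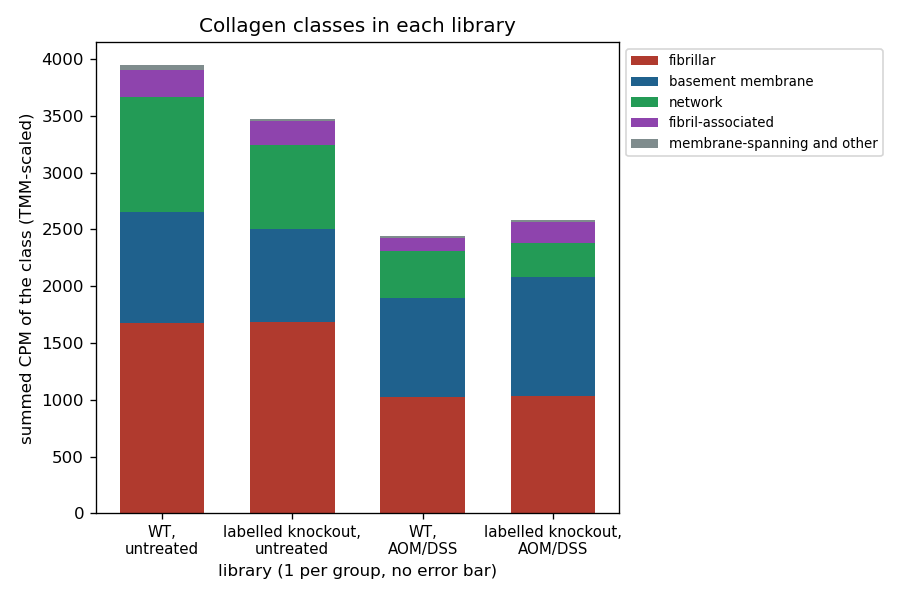
Summed TMM-scaled CPM of the 5 collagen classes in each library, stacked, with 1 library per group and no error bar. The total is lower in both AOM/DSS libraries (2446 and 2582 CPM) than in both untreated libraries (3950.1 and 3477 CPM), while the basement membrane segment stays between 821 and 1047 CPM.

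AOM/DSS was compared with no treatment within each label to ask what the tumour protocol altered. These pairs have no library in common, whereas each of them shares a library with each comparison of labels given further on. A gene was counted as different when the higher library had at least 50 counts and the log2 ratio of CPM + 1 was at least 1 in size, that is 2-fold. In WT, 11 of the 31 collagens with 50 counts (35.5%) were lower after AOM/DSS and 0 were higher, where 3.88% of 15356 genes of all kinds were lower and 4.08% higher. The median log2 ratio was -0.74 over these collagens and 0.02 over all genes. In the pair labelled knockout 12 of 33 collagens (36.4%) were lower and 4 (12.1%) higher, where 15.9% of 15900 genes were lower and 14.1% higher. The median log2 ratio was -0.54 over the collagens and 0.03 over all genes. With TMM factors the collagens' share of lower genes thus lay above the background in both pairs. In the pair labelled knockout their share of higher genes lay near it. Scaled by library totals alone, the all-gene median of the pair labelled knockout moved to 0.30 and the collagen counts to 9 lower and 5 higher. This takes the share of higher ones among them from 25% to 35.7%. The all-gene shares move with the scaling too and are not given for library totals, so those counts have no background here.

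The chains lower in both pairs were Col6a1, Col6a2, Col6a3, Col8a1, Col4a5 and Col4a6. These 6 were 54.5% of the lower list of WT and 50.0% of that of the pair labelled knockout, beside 39.6% and 9.32% for the lists over all genes, which are of unequal length. Of the 35 collagens with 50 counts in any library, 21 (60.0%) had a log2 ratio below 0 in both pairs, against 25.9% of 16383 genes. Nearest to the threshold in WT were Col23a1 at a log2 ratio of -1.02, counted, and Col18a1 at 0.88, not counted. In the pair labelled knockout they were Col1a2 at -1.06 and Col20a1 at -0.93.

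**Figure D3:**
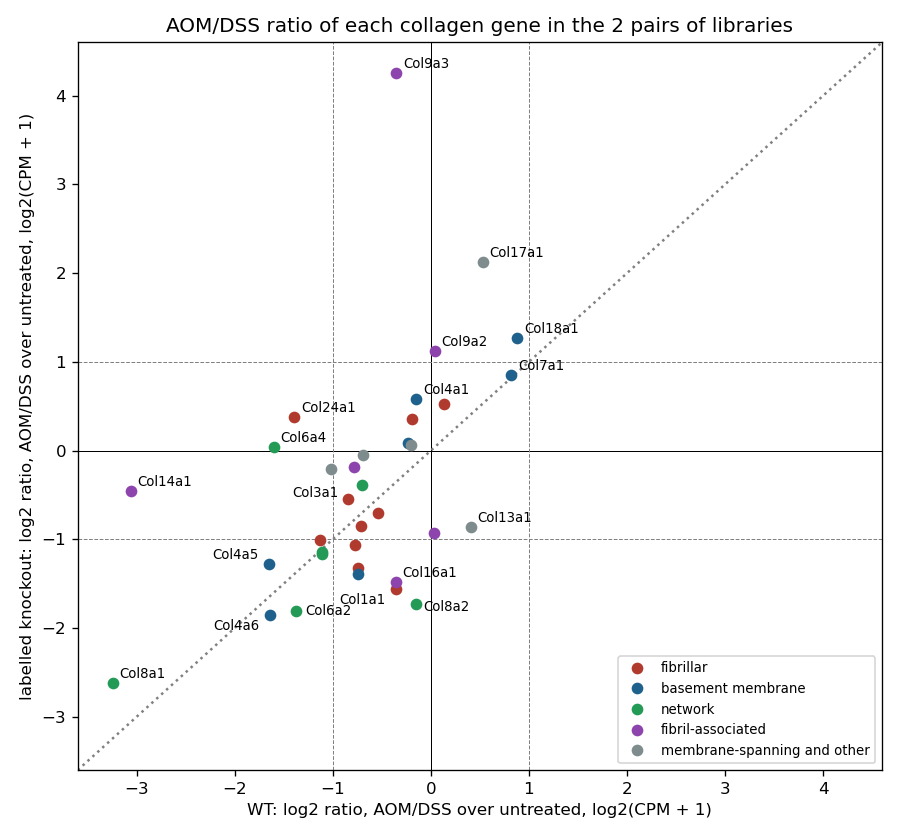
Log2 ratio of CPM + 1, AOM/DSS over untreated, for 35 collagens in the WT pair (x axis) and the pair labelled knockout (y axis), 1 point per gene, coloured by class. Dashed lines mark 2-fold and the dotted line equal ratios. Col8a1, Col4a5, Col4a6, Col6a1, Col6a2 and Col6a3 lie at the lower left, Col14a1 (-3.06 in WT, -0.45 in the pair labelled knockout) far left of the dotted line, and Col9a3 (-0.35 and 4.26) far above it.

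Fibrillar collagens mostly had AOM/DSS ratios below 0 on the log2 scale, 9 of 10 in WT and 6 of 9 in the pair labelled knockout, and most of these stayed within 2-fold. In WT 2 of 10 were counted as lower (Col11a1 and Col24a1), with a class median of -0.73, and in the pair labelled knockout 3 of 9 (Col1a1, Col1a2 and Col27a1), with a median of -0.70. Col1a1, which encodes a chain of type I collagen (chr11:94936224-94953042), stood at 162 CPM in untreated WT, 237 in the untreated library labelled knockout, 126 in WT AOM/DSS and 79.9 in the AOM/DSS library labelled knockout. Both AOM/DSS libraries were below both untreated ones, and the distance was wider between the libraries labelled knockout (2.97-fold, 2.83 to 3.12) than in WT (1.28-fold, 1.22 to 1.35). Col1a2, the partner chain of Col1a1 in type I collagen (chr6:4504814-4541544), stood at 356, 395, 209 and 189 CPM in the same order. It was 1.71-fold lower in WT (1.65 to 1.77) and 2.09-fold lower in the pair labelled knockout (2.02 to 2.16), and the latter call was lost with DESeq2 size factors (log2 ratio -0.99) and library totals (-0.76). The ratio of the type I chains, Col1a1 over Col1a2 per length, was 0.410, 0.542, 0.545 and 0.381, so the chains did not keep a fixed ratio.

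Col3a1 was 1.79-fold lower in WT (1.75 to 1.83) and 1.46-fold lower in the pair labelled knockout (1.43 to 1.49). Type V collagen is a minor component that helps start type I fibrils. Its chain Col5a1 stood at 99.2, 103, 60.3 and 57.1 CPM, lower in both AOM/DSS libraries. Its partner Col5a2 stood at 99.8, 97.9, 87.2 and 126 CPM, and the highest value was that of the AOM/DSS library labelled knockout. Per length, Col5a1 over Col5a2 was 0.783 and 0.833 in the untreated libraries (WT first) and 0.545 and 0.358 in the AOM/DSS libraries, with counting intervals that did not overlap between treatments. Col5a3, a further type V chain, stood at 23.1, 16.6, 15.6 and 9.79 CPM.

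Among the low fibrillar genes, Col27a1 stood at 21, 16.2, 12.2 and 5.87 CPM and was 2.76-fold lower in the pair labelled knockout (2.30 to 3.31). Col24a1 stood at 3.05, 1.52, 0.550 and 2.27 CPM, so its lowest library was WT AOM/DSS, 5.55-fold below untreated WT (3 to 11.2). Col11a1, a type XI chain known mainly from cartilage, had 83, 22, 21 and 0 counts. Against a floor of 3 counts in the library at 0 it was at least 10.7-fold lower in the pair labelled knockout, although its 22 untreated counts were too few for the size rule. Col11a2 stayed between 1.15 and 2.71 CPM.

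Basement membrane collagens differed in direction within the class. Col4a1 and Col4a2, the chains of the type IV network found in nearly all basement membranes, stayed within 2-fold in both pairs. Col4a5 and Col4a6, which form a type IV network known from smooth muscle and some epithelia, were lower in both. Col18a1 was higher after AOM/DSS, and its close relative Col15a1 was lower. Over the class, 2 of 7 members were counted as lower in WT and 0 higher (median -0.23), and 3 of 7 lower and 1 higher in the pair labelled knockout (median 0.09, or 0.39 by library totals).

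Col4a5 (chrX:141475385-141689234) stood at 50.3 CPM in untreated WT, 26.6 in the untreated library labelled knockout, 15.4 in WT AOM/DSS and 10.4 in the AOM/DSS library labelled knockout. Col4a6 (chrX:141165403-141474076) stood at 25.7, 11.3, 7.61 and 2.40 CPM. Both genes had the same order of libraries, with untreated WT highest. After AOM/DSS Col4a5 was 3.27-fold lower in WT (2.90 to 3.71) and 2.57-fold lower in the pair labelled knockout (2.24 to 2.95). Col4a6 was 3.38-fold lower in WT (2.85 to 4.04) and 4.70-fold lower in the pair labelled knockout (3.62 to 6.16). Per length, Col4a5 over Col4a1 was 0.119 and 0.0748 in the untreated libraries and 0.0402 and 0.0195 in the AOM/DSS libraries.

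Col4a5 and Col4a6 lie head to head on the X chromosome, with start sites 1343 bases apart, and are read away from each other. Per length, Col4a5 over Col4a6 was 1.99, 2.40 and 2.05 in untreated WT, the untreated library labelled knockout and WT AOM/DSS, and 4.39 (3.41 to 5.71) in the AOM/DSS library labelled knockout. The genes thus shared the order of libraries but kept no fixed ratio. Their start regions are shown because both were counted as lower in both pairs and lie on separate strands of a short interval. The sequences come from RefSeq (GRCm38.p6), cover the part of the 250 bases before the start site that is in no annotated exon, and are written 5′ to 3′ along the strand of the gene. Capitals mark matches on either strand to the TATA box letters TATAAA, the CAAT box letters CCAAT or the GC box letters GGGCGG. The first is chrX:141475169-141475369 on the plus strand and the other is chrX:141474096-141474326 on the minus strand.
Col4a5: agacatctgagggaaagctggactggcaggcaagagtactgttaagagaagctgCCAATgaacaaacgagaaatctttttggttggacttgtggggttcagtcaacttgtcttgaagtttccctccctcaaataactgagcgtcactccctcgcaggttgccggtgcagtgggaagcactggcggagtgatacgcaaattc
Col4a6: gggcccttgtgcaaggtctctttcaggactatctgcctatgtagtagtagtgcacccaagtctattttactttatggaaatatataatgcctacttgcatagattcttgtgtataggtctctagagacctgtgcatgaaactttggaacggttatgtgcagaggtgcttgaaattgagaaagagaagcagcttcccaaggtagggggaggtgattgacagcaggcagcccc
The Col4a5 window held 1 CCAAT match in its outer part, and the Col4a6 window held 0 matches. These letters describe the windows and not the use of a site. Col4a1 and Col4a2 are also head to head, on chromosome 8, with start sites 21 bases apart and annotated exons over the whole interval, so no sequence is shown.

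Col4a1 (chr8:11198423-11312826) stood at 429, 359.8, 387 and 538 CPM, and Col4a2 (chr8:11312805-11449287) at 309, 278, 264 and 296 CPM. Treated and untreated libraries overlapped for both chains. Col4a1 was 1.49-fold higher in the pair labelled knockout (1.46 to 1.54) and 1.11-fold lower in WT (1.08 to 1.14). Per length, Col4a1 over Col4a2 lay between 1.26 and 1.43 in 3 libraries and at 1.77 (1.73 to 1.81) in the AOM/DSS library labelled knockout. The chains share 0.295% of the exon bases of Col4a1, and whether counting used strand is not given in the sources used here.

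Col18a1 encodes type XVIII collagen, a basement membrane collagen whose end fragment is endostatin (chr10:77052178-77166548). It stood at 79.6 and 69.2 CPM in the untreated libraries (WT first) and at 148 and 168 CPM in the AOM/DSS libraries. Both AOM/DSS libraries lay above both untreated libraries, by 1.85-fold in WT (1.75 to 1.96), which the size rule did not count, and by 2.43-fold in the pair labelled knockout (2.29 to 2.57), which it did. Col15a1, of the same small family, stood at 77.4, 73.4, 46.0 and 27.3 CPM and was 2.68-fold lower in the pair labelled knockout (2.47 to 2.92). Per length, Col18a1 over Col15a1 was 0.951 and 0.872 in the untreated libraries and 2.96 and 5.68 in the AOM/DSS libraries. Col7a1, which anchors the basement membrane to the tissue below, was low, at 1.55, 1.75, 3.48 and 3.95 CPM, 2.25-fold higher in WT (1.51 to 3.40) and 2.26-fold higher in the pair labelled knockout (1.56 to 3.33). On the log2(CPM + 1) scale of the size rule, which understates ratios of low genes, those were 0.82 and 0.85 and were not counted.

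**Figure D4:**
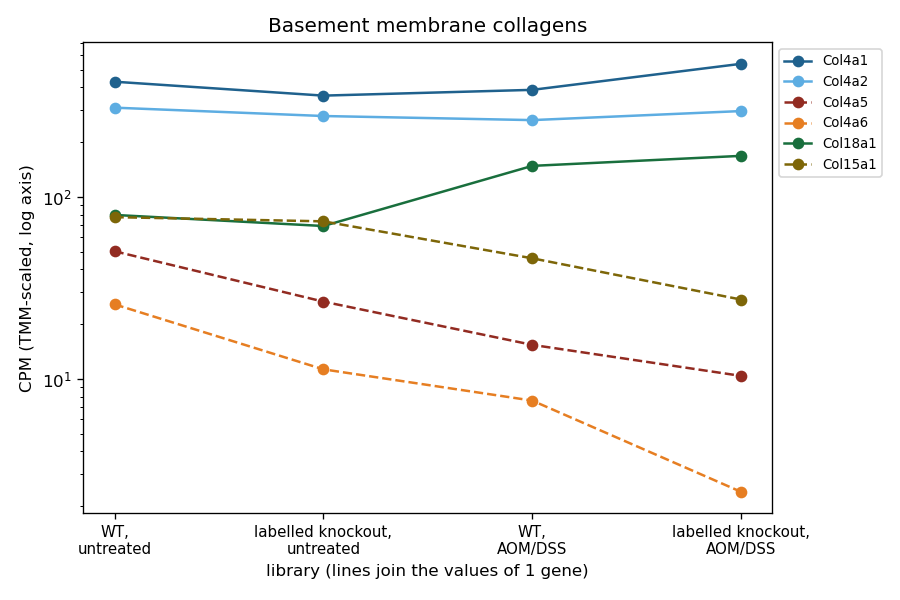
TMM-scaled CPM (log axis) of 6 basement membrane collagens in the 4 libraries, 1 library per group, lines joining the values of a gene. Col4a1 and Col4a2 stay between 264 and 538 CPM, Col4a5, Col4a6 and Col15a1 (dashed) are lower in both AOM/DSS libraries, and Col18a1 is higher in both.

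The start region of Col18a1 (chr10:77166549-77166780, minus strand) is shown as that of the most abundant collagen that was higher in both AOM/DSS libraries, with the same marks and source.
Col18a1: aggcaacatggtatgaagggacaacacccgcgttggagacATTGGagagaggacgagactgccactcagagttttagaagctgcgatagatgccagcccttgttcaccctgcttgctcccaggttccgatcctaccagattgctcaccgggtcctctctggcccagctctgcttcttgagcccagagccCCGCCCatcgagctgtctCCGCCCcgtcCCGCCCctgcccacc
It held 1 CCAAT match at 210 bases and 3 GGGCGG matches at 61, 43 and 33 bases before the start site, all on the opposite strand, so that the former reads ATTGG and the latter CCGCCC.

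Network collagens were lower after AOM/DSS more often than any other class, in 5 of 6 measured members in WT (median -1.24) and 5 of 7 in the pair labelled knockout (median -1.17, or -0.88 by library totals). Type VI collagen is assembled from the products of Col6a1, Col6a2 and a longer chain, in most tissues that of Col6a3. Col6a1 (chr10:76708792-76726168) stood at 358 CPM in untreated WT, 249.5 in the untreated library labelled knockout, 165 in WT AOM/DSS and 113 in the AOM/DSS library labelled knockout. Col6a2 (chr10:76595762-76623630) stood at 276, 228, 106 and 64.1 CPM, and Col6a3 (chr1:90765923-90843971) at 251, 179, 116 and 78.6 CPM. All 3 chains had the same order of libraries, and both AOM/DSS libraries lay below both untreated ones. Col6a1 was 2.17-fold lower in WT (2.09 to 2.26) and 2.21-fold lower in the pair labelled knockout (2.12 to 2.30). Col6a2 was lower by 2.60-fold and 3.55-fold, and Col6a3 by 2.16-fold and 2.27-fold. By library totals Col6a1 (-0.84) and Col6a3 (-0.88) of the pair labelled knockout lost the call.

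Per length, Col6a3 over Col6a1 was 0.285, 0.290, 0.286 and 0.282 in the 4 libraries, with overlapping counting intervals. These genes lie on different chromosomes, and their ratio stayed level while each differed 3-fold or more between the highest and the lowest library. Col6a1 over Col6a2, both on chromosome 10, was less even, at 1.25, 1.06, 1.5 and 1.70. Col6a4, which can take the place of the long chain in the mouse, followed another order, at 69.5, 38.3, 22.3 and 39.5 CPM. It was 3.12-fold lower in WT (2.82 to 3.46) and nearly level in the pair labelled knockout (log2 ratio 0.04, and -0.01 with upper-quartile factors). Col6a5 stood at 7.02, 4.46, 3.94 and 3.16 CPM.

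Col8a1 had the lowest AOM/DSS log2 ratio of the collagens with 50 counts in both pairs (-3.24 in WT and -2.62 in the pair labelled knockout). It encodes a chain of type VIII collagen, known from vessel walls and from cells that migrate in injured tissue (chr16:57624258-57754737), and stood at 56.5 and 35.5 CPM in the untreated libraries (WT first) and at 5.09 and 4.96 CPM in the AOM/DSS libraries. The difference was 11.1-fold in WT (9.15 to 13.6) and 7.16-fold in the pair labelled knockout (6.02 to 8.56). Its partner chain Col8a2 was scarce, at 1.59, 4.10, 1.33 and 0.537 CPM, and was highest in the untreated library labelled knockout, 7.63-fold above the AOM/DSS library of that label (4.51 to 13.7). The start region of Col8a1 (chr16:57754738-57754987, minus strand) is shown for the size of this difference, with the same marks and source.
Col8a1: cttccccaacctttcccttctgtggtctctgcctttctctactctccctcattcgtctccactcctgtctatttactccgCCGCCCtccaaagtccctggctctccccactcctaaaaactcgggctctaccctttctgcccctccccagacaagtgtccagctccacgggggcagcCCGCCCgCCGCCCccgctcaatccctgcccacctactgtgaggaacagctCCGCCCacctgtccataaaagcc
It held 4 GGGCGG matches at 170, 73, 66 and 23 bases before the start site, each on the opposite strand and written as CCGCCC.

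Over the 38 start windows of the 35 collagens that had one, TATAAA was in 5 (13.2%), CCAAT in 13 (34.2%) and GGGCGG in 22 (57.9%), counting each motif on both strands. Over all 32851 windows of the same length these shares were 12.4%, 33.8% and 32.7%. GGGCGG was the motif whose share differed most from that of all windows, and windows of 1 gene can share bases.

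Fibril-associated collagens had the largest class median of the difference in AOM/DSS response between the labels (0.83 on the log2 scale, 6 members). Col14a1, which binds the surface of type I fibrils and is known from mature connective tissue (chr15:55307750-55520803), stood at 85.2 CPM in untreated WT, 36.9 in the untreated library labelled knockout, 9.35 in WT AOM/DSS and 26.7 in the AOM/DSS library labelled knockout. It was 9.11-fold lower after AOM/DSS in WT (7.89 to 10.6) and 1.38-fold lower in the pair labelled knockout (1.25 to 1.52). Col12a1, a related collagen often found where tissue is under load, stood at 99.0, 109, 57.2 and 95.3 CPM. Per length, Col14a1 over Col12a1 was 1.53 in untreated WT, 0.604 in the untreated library labelled knockout, 0.292 in WT AOM/DSS and 0.5 in the AOM/DSS library labelled knockout. Col12a1 thus exceeded Col14a1 per length in every library but untreated WT.

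Col9a3, a chain of type IX collagen known mainly from cartilage (chr2:180597790-180622189), stood at 0.912, 0.506 and 0.504 CPM in untreated WT, the untreated library labelled knockout and WT AOM/DSS, and at 27.9 CPM in the AOM/DSS library labelled knockout (23, 11, 11 and 883 counts). It was 55.0-fold higher after AOM/DSS in the pair labelled knockout (30.6 to 111). The other type IX chains were low and highest in the same library. Col9a2 stood at 0.992, 0.921, 1.05 and 3.19 CPM, and Col9a1 had 1, 0, 0 and 27 counts. The cartilage chain Col2a1, with which type IX is usually assembled, had 2, 0, 1 and 8 counts. Of the exon bases of Col9a3, 6.07% overlap Tcfl5 on the opposite strand, which had at most 4 counts in a library. Col16a1, found near fibrils and basement membranes, stood at 33.3, 50.4, 25.8 and 17.5 CPM and was 2.88-fold lower in the pair labelled knockout (2.60 to 3.20), against 1.29-fold lower in WT (1.16 to 1.44). Col20a1 stood at 13.7, 12.4, 14.0 and 6.03 CPM.

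Of the membrane-spanning and other collagens, Col17a1 is a part of the hemidesmosome, which ties basal cells of stratified epithelium to their basement membrane (chr19:47646344-47692094). It stood at 0.357, 0.460 and 0.963 CPM in untreated WT, the untreated library labelled knockout and WT AOM/DSS, and at 5.40 CPM in the AOM/DSS library labelled knockout (9, 10, 21 and 171 counts). It was 11.7-fold higher in the pair labelled knockout (6.22 to 24.9). Beside it, the summed level of 4 markers of stratified epithelium (Krt5, Krt14, Krt13 and Dsg3) was 2.18, 2.81, 4.63 and 59.7 CPM. Dsg3 was at 0 in both WT libraries. All 4 markers, like Col17a1, reached 50 counts only in the AOM/DSS library labelled knockout. Higher was therefore the only call open to them in that pair, and their calls add nothing to the levels. The part of stratified epithelium in the level of Col17a1 was not tested. Col23a1 stood at 32.8, 11, 15.7 and 9.41 CPM, highest in untreated WT, 2.09-fold above WT AOM/DSS (1.84 to 2.38). Col13a1 (1.07 to 2.76 CPM), Col25a1 (1.29 to 2.58 CPM) and Col28a1 (3.60 to 6.51 CPM) were low and within the size rule in every pair in which they had 50 counts.

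The other 9 collagens had fewer than 50 counts in every library. Col22a1 reached 48 counts, Col19a1 34, Col4a3 and Col9a1 27 each, Col4a4 22, Col6a6 13, Col2a1 and Col26a1 8 each and Col10a1 1. A count of 0 allows up to 3 counts, which is 0.0947 to 0.138 CPM in these libraries.

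The libraries labelled knockout were compared with WT at each treatment, in pairs that reuse the libraries above. Without treatment 4 of 31 collagens (12.9%) were lower in the library labelled knockout and 0 higher, where 3.37% of 15352 genes were lower and 4.46% higher. The median was -0.36 over the collagens and -0.01 over all genes. The lower ones were Col11a1 (3.25-fold, 2.01 to 5.47), Col23a1 (2.98-fold, 2.58 to 3.46), Col14a1 (2.31-fold, 2.13 to 2.51) and Col4a6 (2.28-fold, 1.97 to 2.66). Col8a2 was just outside, at a log2 ratio of 0.98, and was counted as higher when genes above 1% of a library were left out, which made the share of higher ones 20% in place of 0.0%. Col1a1, in contrast to the class median of -0.25, was 1.47-fold higher in the library labelled knockout (1.41 to 1.53).

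After AOM/DSS the library labelled knockout exceeded WT in 5 of 32 collagens (15.6%) and lay below it in 2 (6.25%), where 11.9% of 15779 genes were higher and 12.4% lower. These shares are near the background for the higher ones and below it for the lower ones. The median was -0.11 over the collagens and 0.03 over all genes. The higher ones were Col9a3 (55.3-fold, 30.7 to 111), Col17a1 (5.61-fold, 3.55 to 9.29), Col24a1 (4.13-fold, 2.23 to 8.36), Col9a2 (3.02-fold, 1.91 to 4.98) and Col14a1 (2.86-fold, 2.45 to 3.35). The lower ones were Col4a6 (3.17-fold, 2.40 to 4.22) and Col20a1 (2.33-fold, 1.94 to 2.80). Col4a6 was the collagen counted as lower in the library labelled knockout at both treatments, after AOM/DSS at 76 against 166 counts. Col14a1 was lower without treatment and higher after AOM/DSS. By library totals the all-gene median of this pair moved to 0.28, the share of higher ones among the counted collagens from 71.4% to 85.7%, and the fibrillar median from -0.14 to 0.13. The all-gene shares under that scaling are not given here.

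The AOM/DSS log2 ratio of the pair labelled knockout minus that of WT was at least 1 in 6 of 35 collagens (17.1%) and -1 or less in 4 (11.4%), where 14.2% and 16.3% of 16383 genes were. Collagens were thus near the background in this difference, whose median was 0.30, and none of it was tested, since each term rests on a single pair. The largest were Col9a3 (4.61), Col14a1 (2.61), Col24a1 (1.76), Col6a4 (1.64), Col17a1 (1.60) and Col9a2 (1.08). At the other end were Col8a2 (-1.58), Col13a1 (-1.27), Col1a1 (-1.20) and Col16a1 (-1.12).

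An additive model of treatment and label over all 4 libraries is the fit with a test that the layout allows, and 39 of the 44 collagens passed its filter on low counts. It called 0 of 18973 genes (0.0%) for treatment and 0 for label with edgeR's quasi-likelihood test at an adjusted p under 0.05. At an unadjusted p under 0.05 it gave 11 of 39 collagens for treatment, where 6.05% of all genes passed, and 2 of 39 for label, where 3.93% did. The lowest collagen p was that of Col8a1 for treatment, with a log2 fold change of -3.16 and an adjusted p of 0.326. DESeq2's Wald test called 336 genes (1.83%) for treatment, among them 1 collagen (adjusted p = 8.57e-06), and 255 (1.31%) for label, among them 0 collagens. The single residual degree of freedom of this model holds the interaction, so the spread it uses includes any difference between the labels in response.

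Genes that work with collagens were read against the all-gene shares of lower and higher genes (3.88% and 4.08% in WT, 15.9% and 14.1% in the pair labelled knockout). Of 17 measured enzymes and chaperones that modify and fold collagen chains 0 were counted in WT (median -0.31), and 4 (23.5%) were lower and 0 higher in the pair labelled knockout (median -0.44). Serpinh1, the chaperone that binds the collagen triple helix, stood at 164, 188, 97.4 and 77.5 CPM, so both AOM/DSS libraries were lower. Leprel1, a prolyl hydroxylase known to act on type IV collagen, stood at 10.3, 11.6, 5.18 and 1.77 CPM. P4hb, a subunit of the prolyl hydroxylase with further roles in protein folding, stood at 968, 659, 997 and 1239 CPM, highest in the AOM/DSS library labelled knockout, where Plod3 and Lepre1 were highest as well. Among 13 genes of procollagen trimming and cross-linking 1 was lower in WT (Pcolce2, median -0.40), and of 11 in the pair labelled knockout 2 were higher and 2 lower (median -0.15). Lox, which cross-links fibrils, was higher there at 21.4 against 7.32 CPM, and Pcolce, which helps trim procollagen, lower at 14.0 against 38.4 CPM.

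Of 19 proteins that bind collagen fibrils 8 were lower and 0 higher in WT (median -0.76), and of 20 in the pair labelled knockout 11 were lower and 2 higher (median -1.11). Dpt, which binds decorin and fibrils, stood at 174, 133, 40.9 and 24.5 CPM, and Tnxb, which links fibrils, at 370.3, 209.7, 119 and 36.5 CPM. Both had the order of libraries seen for Col6a1. Thbs2, a matrix protein that affects fibril assembly, departed from it, at 38.2, 26.7, 15.4 and 88.6 CPM. Noncollagenous basement membrane proteins differed between the pairs, with 5 of 19 lower and 2 higher in WT (median -0.78) and 0 of 18 lower and 5 higher in the pair labelled knockout (median 0.50). The laminin chain Lama2, known from muscle, stood at 58.1, 32.3, 12.1 and 16.1 CPM, so both AOM/DSS libraries were lower.

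Of 17 collagen-degrading enzymes and their inhibitors 7 were higher in WT with 0 lower (median 0.68), and 10 of 18 were higher in the pair labelled knockout with 1 lower (median 1.47). Mmp13, an interstitial collagenase, stood at 4.40, 2.58, 19.0 and 46.6 CPM. Of 9 collagen receptors 1 was lower and 0 higher in WT (median -0.40), and 1 lower and 1 higher in the pair labelled knockout (median -0.32). Itga11, the fibroblast integrin for fibrillar collagen, stood at 24.1 and 15 CPM in the untreated libraries (WT first) and at 1.79 and 2.90 CPM in the AOM/DSS libraries, far below, as for Col8a1. Of 18 genes of the TGF-beta pathway, a main inducer of collagen transcription, 2 were higher and 2 lower in WT (median -0.17), and 3 higher and 3 lower in the pair labelled knockout (median 0.30). Ltbp4, which anchors latent TGF-beta in the matrix, stood at 212, 218, 36.8 and 40.1 CPM, so both AOM/DSS libraries were lower.

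**Figure D5:**
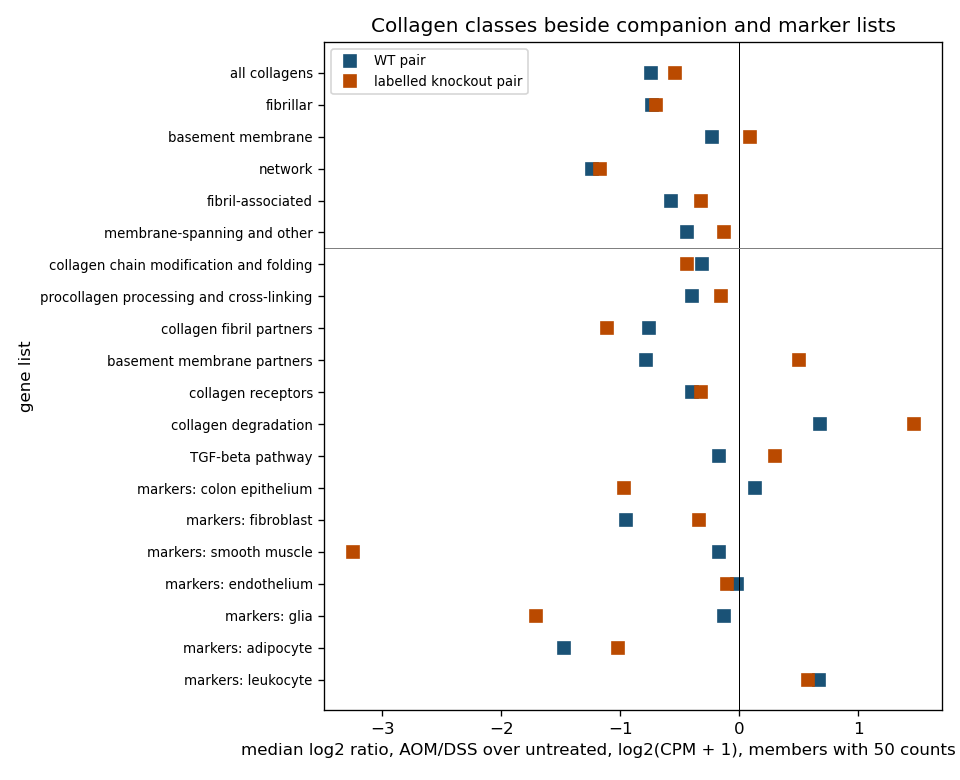
Median log2 ratio of CPM + 1, AOM/DSS over untreated, of the collagen classes (above the line) and of companion and marker gene lists (below it), over members with at least 50 counts in the pair, for WT and the pair labelled knockout. Network collagens (-1.24 and -1.17) lie left of the other collagen classes, fibroblast markers at -0.95 and -0.34, and smooth muscle markers at -0.17 and -3.25.

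Markers of cell types in the colon wall were measured beside these results. The summed level of 8 fibroblast markers was 873 and 671 CPM in the untreated libraries (WT first) and 408 and 455 CPM in the AOM/DSS libraries. Of these 8 markers 4 were lower in WT, and 3 lower and 1 higher in the pair labelled knockout, and each had a count in every library. Lum, Dpt and Dcn of this list are also among the fibril partners. Relative to this sum, all collagens together stood at 4.53, 5.18, 5.99 and 5.68. The same quotient per fibroblast marker sum was 1.92, 2.51, 2.50 and 2.27 for fibrillar collagens, 1.12, 1.22, 2.13 and 2.30 for basement membrane collagens and 1.17, 1.10, 1.03 and 0.668 for network collagens. By this quotient network collagens were lower in both AOM/DSS libraries than in both untreated ones. Relative to the sum of 6 smooth muscle markers the order was another, at 0.519, 0.423, 0.401 and 2.23 for all collagens and 0.134, 0.0899, 0.069 and 0.262 for network collagens, both highest in the AOM/DSS library labelled knockout.

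Summed smooth muscle markers stood at 7614, 8211 and 6096 CPM and at 1158 CPM in the AOM/DSS library labelled knockout, where all 6 were lower than in each of its partners, and each had a count in every library. In the WT pair 0 of these 6 markers was counted (median -0.17). Glial markers, listed because type IV and VI collagens also sheathe nerves, summed to 25.6, 16.8, 36.8 and 2.84 CPM, fat cell markers to 218, 20.7, 77.3 and 9.75 CPM, endothelial markers to 241, 213, 248 and 240.2 CPM, colon epithelial markers to 15871, 10046, 14933 and 6023 CPM and leukocyte markers (4 of 5 in the table) to 50.6, 93.8, 117 and 135 CPM. No marker of these 5 lists was at 0 in a library. Much of the epithelial sum in the WT libraries was Car1, which stood at 7654, 857, 5313 and 28.4 CPM in the 4 libraries. Without treatment, 4 of the 7 epithelial markers had a log2 ratio above 0 in the library labelled knockout over WT and 3 below 0 (median 0.02). The part of a shift in fibroblasts, muscle, fat or nerve in the collagen results was not tested.

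Outside the family, the genes whose log2 CPM profile over the 4 libraries lay nearest to that of Col1a1, among 9825 genes with at least 200 counts in each, were Dap, Shroom3, Stim1, Syde2 and Hist1h2bc, at root mean square differences of 0.046 to 0.069. Dap stood at 89.2, 123, 64.3 and 40.7 CPM. With 4 values per profile and so many genes, near matches are a description only.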

How the data were processed

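Colon RNA of 4 libraries, 1 per genotype label and treatment, was TRIzol-extracted and sequenced with an Ion Proton RNA-seq kit (per the labels). The authors deposited whole-number counts per gene symbol without normalization, for GRCm38 (mm10) per the submitters' processing notes. Aligner, counter, annotation and use of strand were not given in the sources used here. The table held 0 columns of other samples. Symbols of 27 rows had been turned into dates and name no gene.

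Scaling to CPM used TMM factors of 0.9915, 0.9311, 0.9473 and 1.143 (edgeR 4.0.16, R 4.3.3), in the order WT untreated, labelled knockout untreated, WT AOM/DSS, labelled knockout AOM/DSS. All 44 members matched GENCODE release M21, which gave positions (1-based) and the length of the transcript with the longest coding sequence. Start windows came from RefSeq (GRCm38.p6). Folds are ratios of CPM without a pseudocount, with exact 95% Clopper-Pearson intervals conditional on the summed counts. Without molecular identifiers, reads need not be independent molecules, so intervals and floors cover counting error only. The size rule used log2(CPM + 1), at least 50 counts and 2-fold. With 1 library per group no p-value was computed for a pair.

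The additive model (label plus treatment) used edgeR's quasi-likelihood test (robust fit after filterByExpr, Benjamini-Hochberg over 18973 genes, biological coefficient of variation 0.444, 1 residual degree of freedom), with DESeq2 1.42.0 as an alternative. The scripts were tested on simulated data. Alternatives were DESeq2 and upper-quartile factors, library totals, pseudocounts of 0.5 and 5 CPM, at least 200 counts or no minimum, thinning to the smallest total and leaving out genes above 1% of a library. TMM factors computed without the AOM/DSS library labelled knockout were added after seeing the data.

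Named were every member, up to 4 members with the largest ratios per companion list, and the 5 genes nearest to Col1a1. Mmp13 was named outside this rule, after its values were seen. Some genes that the rule names are left out of the text. Members and lists were chosen with earlier results of these data known.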

Additional observations from a re-analysis of the deposited data

How the results depend on the processing

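The WT count of lower collagens ran from 8 (pseudocount of 5 CPM) to 11 over all alternatives, with 0 higher, and was 11 with TMM factors computed without the AOM/DSS library labelled knockout. A pseudocount of 5 CPM, which shrinks low genes, gave 2 higher in the pair labelled knockout, 2 lower between labels without treatment, 2 higher and 0 lower between labels after AOM/DSS, and response differences of 3 higher and 1 lower. A minimum of 200 counts, which leaves fewer genes, gave 2 higher in the pair labelled knockout, 2 higher and 1 lower between labels after AOM/DSS, and response differences of 3 higher and 2 lower. Library totals gave 1 lower between labels after AOM/DSS and 2 lower response differences. Thinning gave 3 higher between labels after AOM/DSS. A pseudocount of 0.5 CPM, and leaving out genes above 1% of a library, each gave 1 higher between labels without treatment. The all-gene shares, which can differ between alternatives, are not given beside these counts, so they are not read against a background. The treatment term called 1 collagen with DESeq2 and 1 without the expression filter, against 0. The other 82 counts stayed within 1.5 times, and 1156 single-gene values kept their side of 2-fold, while 21 lost and 6 gained a call. Library totals turned the sign of Col12a1 (-0.19 to 0.10), Col23a1 (-0.21 to 0.06) and Col28a1 (-0.05 to 0.18) in the pair labelled knockout, and of Col1a2, Col5a1, Col8a1 and Col28a1 between labels after AOM/DSS. Depth limits Col8a2, Col9a2, Col11a1, Col17a1 and Col24a1 most, whose calls rest on fewer than 200 counts in the higher library. The call of Col4a6 between labels after AOM/DSS, at 76 against 166 counts, does as well. No paired analysis was possible because each group had 1 library and the labels carry no replicate numbers.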

Other observations

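Several collagen genes lie close together, and such genes did not always share a profile. Col3a1 and Col5a2 lie near each other on opposite strands of chromosome 1, and in the pair labelled knockout their AOM/DSS log2 ratios were -0.54 and 0.36. Col6a4 and Col6a5, which lie with Col6a6 on the minus strand of chromosome 9, had -1.60 and -0.70 in WT, and Col6a6 had 13, 1, 2 and 1 counts. The type IV chains Col4a3 and Col4a4, which also lie head to head on chromosome 1 and are best known from the kidney filter, had 27 and 22 counts in untreated WT, 15 and 10 in the untreated library labelled knockout, 3 and 3 in WT AOM/DSS and 8 and 10 in the AOM/DSS library labelled knockout. Both had fewer counts in WT AOM/DSS than in untreated WT, as Col4a5 and Col4a6 did, at levels too low for the size rule.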
